A study of Mus musculus with 6 samples.

Results

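The genes described here encode the proteins of the mitochondrial ribosome. Their expression was compared between long-term hematopoietic stem cells (LT-HSCs) that carried much or little CD61 (integrin beta 3) on their surface, in old male mice. Members are defined by their names. They are the protein-coding genes of GENCODE mouse release M21 whose symbol starts with Mrpl or Mrps followed by a digit and which are listed in the deposited count table of the whole series. This gave 77 genes of the 17500 in that table, 48 named for the large subunit and 29 for the small one. One further symbol, Mrpl53, was at 0 in every library and is not in the series table. The animals were C57/Bl6 wild-type males of 22 to 24 months of age. Both groups were LT-HSCs sorted as Lin-, Sca1+, cKit+, CD48- and CD150+, so the control group carries the same gate. CD61High cells were the top 10% and CD61Low cells the bottom 10% of that population by surface CD61, with 5000 cells per library. There were 3 libraries a group, 1 of each from mice 1, 2 and 3. Titles number the mice singly, whereas the sort description mentions pooled LT-HSCs, and the 3 numbers are taken here as 3 animals.

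Mitochondria carry their own ribosome, which translates the few proteins encoded by mitochondrial DNA, all of them parts of the respiratory chain and ATP synthase. Its RNA is transcribed inside the organelle, whereas all of its proteins are encoded in the nucleus, made in the cytosol and imported. Many of these proteins have a counterpart in the bacterial ribosome, and others are found only in the mitochondrial one. LT-HSCs are known for low reliance on respiration while quiescent, and they need mitochondrial function when they leave quiescence and differentiate.

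Sequencing depth and the sort bear on every value below. Each library held 21354130 to 26398090 gene counts, and a member held between 121 and 3637 counts in a library, with a median of 1117. Values are given as CPM (counts put on one scale for library size) after adjustment of library totals by the trimmed mean of M values (TMM). On the library totals before that adjustment, a count of 0 would allow up to 0.114 to 0.140 CPM. The defining genes of LT-HSCs were detected, with all 10 markers of that list above 0 in all 6 libraries. Their summed share of counts was 0.446%, 0.215% and 0.464% in CD61High of mice 1, 2 and 3, and 0.603%, 0.137% and 0.636% in CD61Low. Both libraries of mouse 2 stood apart. The 10 neutrophil markers, a list led by S100a8, S100a9 and Ngp, none of them at 0 in any library, made up 6.83% of the CD61High library of mouse 2 and 11.1% of its CD61Low library. In the same order the shares were 0.504% and 2.01% in mouse 1 and 0.0236% and 0.162% in mouse 3. Monocyte and macrophage markers (8, none at 0) also set mouse 2 apart, at 0.864% and 1.37% beside 0.0409% to 0.343% in the other libraries, as did erythroid markers (10, none at 0), at 1.58% and 2.78% beside 0.304% to 0.4998%. B lineage markers (8, with Pax5 and Igll1 at 0 in 2 libraries each) stayed at or below 0.0401%. T and NK markers (8, with Cd3g, Trbc2, Ncr1 and Gzma at 0 in 1 or 2 libraries) stayed at or below 0.0283%. Mouse 2 was the highest for both, at 0.0292% and 0.0401% for B lineage and 0.0231% and 0.0283% for T and NK markers. The other libraries held at most 0.0198% and 0.0143%. Neutrophil and monocyte shares were lower in CD61High than in CD61Low of every mouse, as were B lineage and T and NK shares. For monocyte and macrophage markers they were 0.123% and 0.343% in mouse 1 and 0.0409% and 0.0552% in mouse 3. Megakaryocyte and platelet markers (8, with Gp1bb at 0 in 1 library) were instead higher in CD61High in every mouse. They took 0.164%, 0.0997% and 0.181% of counts in CD61High of mice 1, 2 and 3 and 0.0754%, 0.0317% and 0.107% in CD61Low. Itga2b, Gp9 and Gp5 were called higher by edgeR with the mouse as a block, at adjusted p = 0.0308, 0.0436 and 0.0436. Their log2 fold changes were 2.42, 1.42 and 1.499. Of the LT-HSC markers, the same edgeR fit called Procr and Ly6a lower in CD61High and no other. These had log2 fold changes of -1.25 and -1.34, at adjusted p = 0.0436 and 0.0446. In bulk RNA, fewer cells of a type and less RNA per cell cannot be told apart. The part of these markers in the results was not tested, and the main results are also given by mouse and without mouse 2. Itgb3, which encodes CD61, stood at 206, 139.8 and 227 CPM in CD61High and 294, 129 and 336 CPM in CD61Low of mice 1, 2 and 3. Its mRNA was thus lower in the CD61High library of mice 1 and 3, although the gate was set on the protein.

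Most mitochondrial ribosomal protein genes had slightly more mRNA in CD61High than in CD61Low LT-HSCs, and no single member passed the test. The median log2 fold change (CD61High against CD61Low, edgeR) was 0.23 over the 48 large subunit genes and 0.27 over the 29 small subunit genes, where it was -0.05 over all 15610 genes tested. The estimate lay above 0 for 44 of 48 large and 26 of 29 small subunit genes, 70 of 77 together, against 45.4% of all tested genes. Single estimates ran from -0.21 for Mrpl33 to 0.49 for Mrpl12, and their median standard error was 0.19, so the typical difference was about as large as its error. By edgeR's quasi-likelihood test with adjustment over all tested genes, 0 of 77 members were called at an adjusted p under 0.05, as were 0% of all tested genes. The lowest adjusted p of a member was 0.683. At an unadjusted p under 0.05, 6 members were higher (4 large, 2 small) and 0 lower, where 3.56% of all tested genes were higher and 3% lower.

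**Figure D1:**
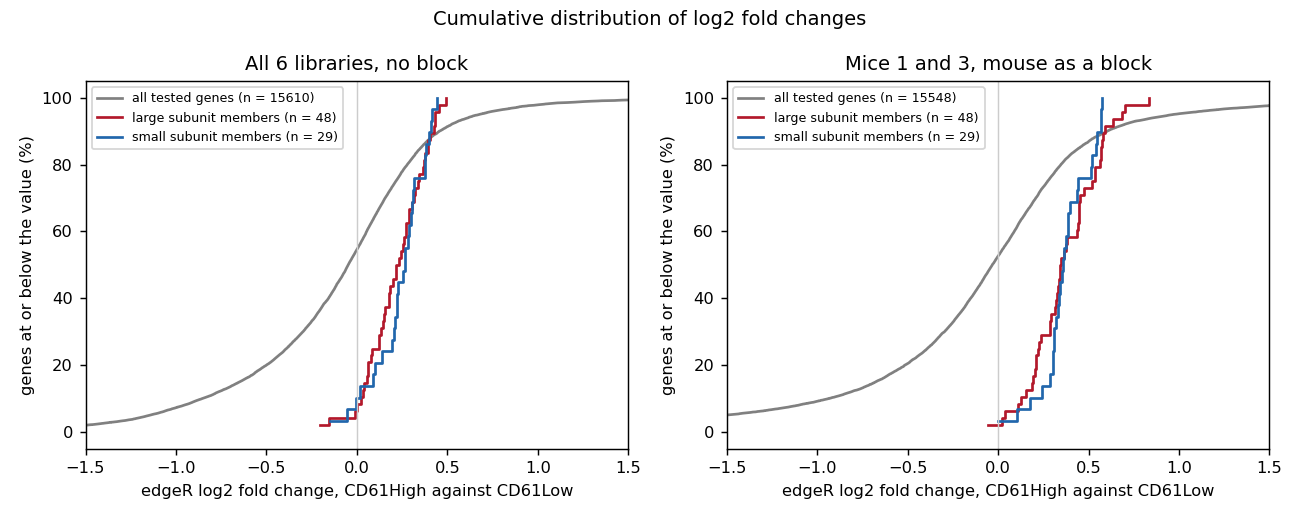
Cumulative share of genes (y axis, percent) at or below a log2 fold change (x axis, CD61High against CD61Low, edgeR), for all tested genes (grey) and for large (red) and small (blue) subunit members; all 6 libraries without a block at left, mice 1 and 3 with the mouse as a block at right. At left the member curves cross 0 at the bottom, with 4 of 48 large and 3 of 29 small subunit genes below it, while the curve of all genes crosses 0 near its middle.

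Since each mouse gave 1 library of each group, the test was also run with the mouse as a block. The medians became 0.26 (large) and 0.28 (small), 72 of 77 estimates lay above 0 against 48.2% of all tested genes, and the median standard error fell to 0.16. With the block, 0 of 77 members were called, where 0.256% of all tested genes were. The lowest adjusted p was 0.152, that of Mrpl50, by edgeR with the block. At an unadjusted p under 0.05, 11 members were higher (7 large, 4 small) and 0 lower, beside 8.01% of all tested genes higher and 12.8% lower. Other tools also called 0 members. Without a block, DESeq2 called 1.48% of all tested genes and limma voom 0%, and 9 and 7 members had an unadjusted p under 0.05, beside 9.26% and 7.35% of all tested genes. With the block, DESeq2 called 10% of all tested genes and limma voom 2.13%, and 10 and 14 members had an unadjusted p under 0.05, beside 20.9% and 22.6%.

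The difference lay in mice 1 and 3. Within mouse 1 the members' median difference (log2 CPM, CD61High minus CD61Low) was 0.44 and 76 of 77 members were higher in CD61High, where 50% of all tested genes were. Within mouse 3 it was 0.31 with 73 of 77 higher, beside 48.2% of all tested genes. Within mouse 2 the median was -0.04 and 34 of 77 were higher, beside 44.8% of all tested genes. Both subunits had the same order, with medians of 0.41, -0.06 and 0.34 for the large and 0.45, 0.00 and 0.29 for the small subunit in mice 1, 2 and 3. The one member below 0 in mouse 1 was Mrps18b, and the 4 below 0 in mouse 3 were Mrpl9, Mrpl10, Mrpl48 and Mrpl52. In all, 34 members (19 large, 15 small) were higher in CD61High in all 3 mice, beside 20.6% of all tested genes, and 0 were lower in all 3, beside 24.7%. The 3 CD61High values lay above all 3 CD61Low values for 19 members (10 large, 9 small), beside 8.62% of all tested genes, and below them for 0, beside 5.71%.

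**Figure D2:**
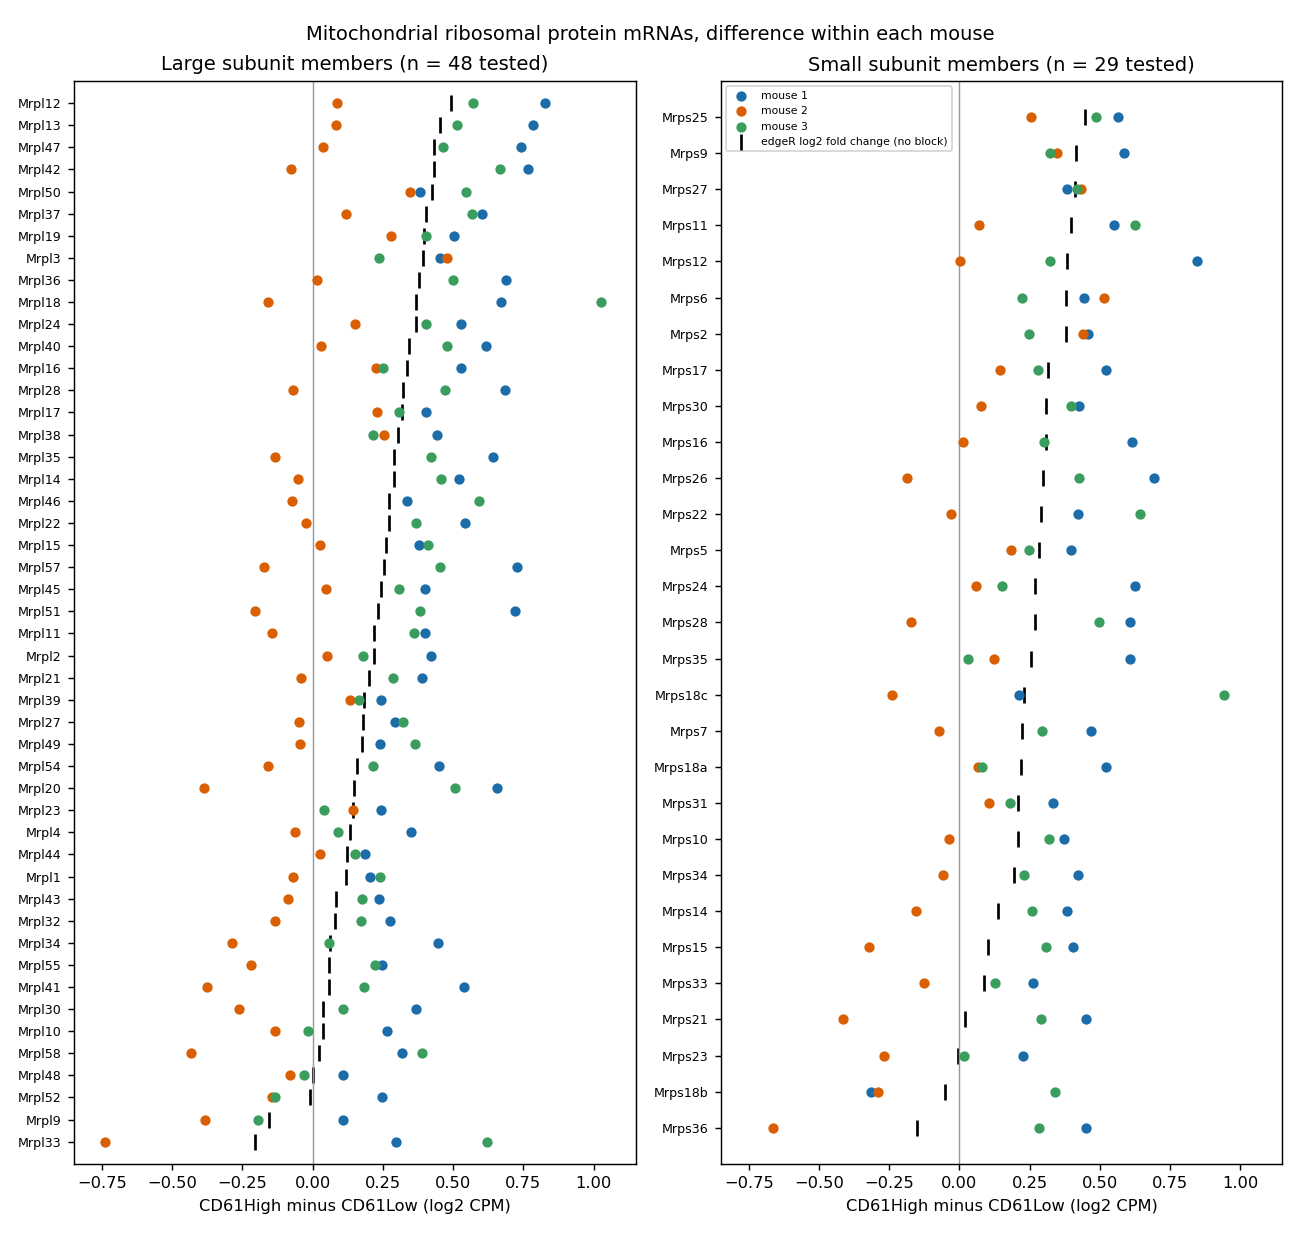
Difference between the CD61High and CD61Low library of each mouse (x axis, log2 CPM; points coloured by mouse) for each tested large (left) and small (right) subunit member; black ticks give the edgeR log2 fold change without a block, by which genes are ordered. Points of mice 1 and 3 lie mainly to the right of 0, with 76 and 73 of 77 members there, while those of mouse 2 lie on both sides, with 34 of 77 to the right.

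The sum over members shows the same split by mouse. Large subunit genes summed to 2837, 2679 and 2640 CPM in CD61High of mice 1, 2 and 3, and to 2047, 2787 and 2084 CPM in CD61Low. The 3 CD61High sums lay close together, while CD61Low of mouse 2 was high and the other two CD61Low libraries low, so the groups overlapped through mouse 2. Small subunit genes summed to 1476, 1325 and 1357 CPM in CD61High and to 1062, 1338 and 1106 CPM in CD61Low. The ratio of the CD61High to the CD61Low sum was 1.39, 0.961 and 1.27 for the large and 1.39, 0.990 and 1.23 for the small subunit in mice 1, 2 and 3. CD61Low of mouse 2 was the highest of the 3 CD61Low libraries for 58 of 77 members, beside 43.5% of all tested genes.

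The direction in mouse 2 depended on the scaling. As shares of all counts, with no TMM adjustment, large subunit genes took 0.309%, 0.248% and 0.286% in CD61High and 0.219%, 0.213% and 0.231% in CD61Low of mice 1, 2 and 3, so CD61High was higher in each mouse. With library size alone the members' median in mouse 2 became 0.23 with 67 of 77 above 0, and the median of all tested genes in mouse 2 moved with it, from -0.07 to 0.20. Relative to the median of all tested genes, the members stood at 0.44, 0.02 and 0.32 in mice 1, 2 and 3 with TMM, and at 0.44, 0.03 and 0.32 with library size alone.

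**Figure D3:**
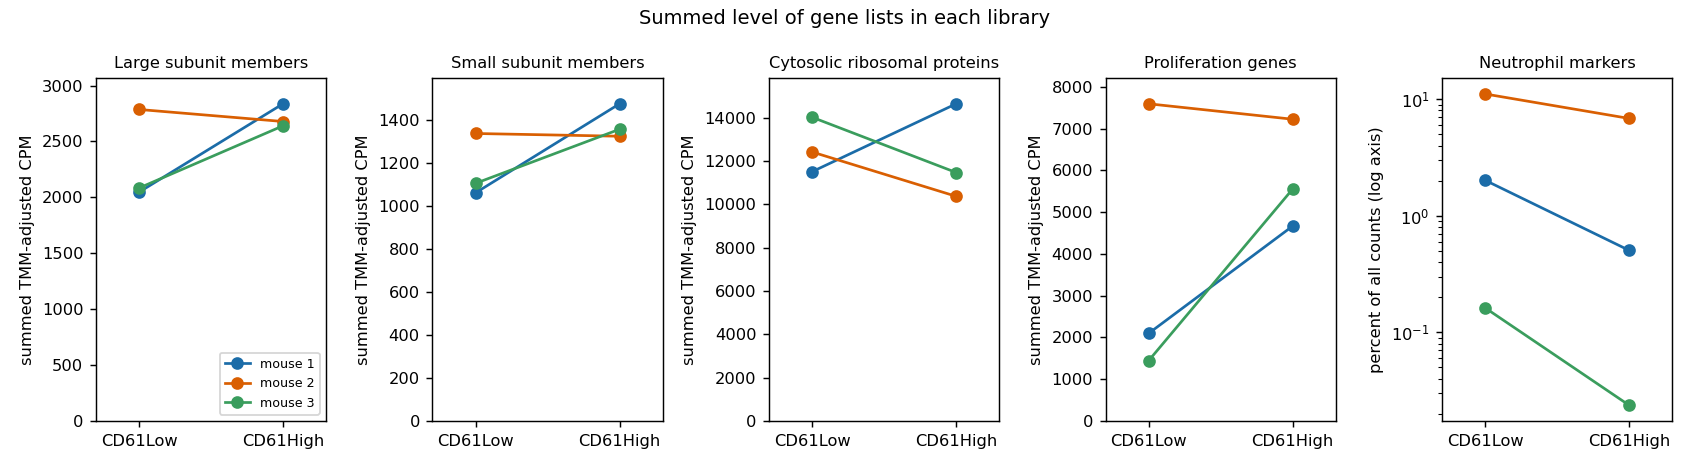
Summed level of 5 gene lists in the CD61Low and CD61High library of each mouse (lines join the libraries of 1 mouse); y axes are summed CPM starting at 0, except for neutrophil markers, which are a percent of all counts on a log axis. Lines for both subunits climb from CD61Low to CD61High in mice 1 and 3 and are near level in mouse 2, whose neutrophil share is the highest in both groups at 6.83% and 11.1%.

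Among large subunit genes, those with the smallest p with the block and the same sign in 3 mice were Mrpl50, Mrpl3, Mrpl19, Mrpl13 and Mrpl37. Mrpl50 (GRCm38 chromosome 4, 49512596 to 49521093), one of the proteins with no bacterial counterpart, stood at 76.3, 61.1 and 75.3 CPM in CD61High and 58.6, 48.1 and 51.5 CPM in CD61Low of mice 1, 2 and 3. The groups did not overlap, and the lowest CD61High value was that of mouse 2. Its log2 fold change was 0.43 (SE 0.16), with an edgeR adjusted p of 0.730, and 0.42 (SE 0.13) with the block, adjusted p = 0.152. Mrpl3 (chromosome 9, 105053239 to 105079888), the counterpart of bacterial L3 near the peptidyl transferase centre, stood at 100.3, 88.4 and 83.4 CPM in CD61High and 73.3, 63.4 and 70.8 CPM in CD61Low. Its groups did not overlap either, and its difference in mouse 2, 0.48, was as large as that in mouse 1, 0.45. The fit gave 0.39 (SE 0.14), edgeR adjusted p = 0.725.

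Mrpl19 (chromosome 6, 81957851 to 81965958), the counterpart of bacterial L19, stood at 61.4, 58.8 and 60.9 CPM in CD61High and 43.3, 48.4 and 46.0 CPM in CD61Low of mice 1, 2 and 3. The groups did not overlap and were tight, at 60.4 ± 1.40 and 45.9 ± 2.54 CPM (SD, n = 3). Its log2 fold change of 0.39 (SE 0.13) had the lowest adjusted p of any member without the block, 0.683 by edgeR. Of its exon bases, 36.0% also lie in exons of Gcfc2, where a read is ambiguous and counted for neither gene. Mrpl13 (chromosome 15, 55534094 to 55557748), the counterpart of bacterial L13, stood at 98.5, 81.0 and 79.7 CPM in CD61High and 57.2, 76.4 and 55.7 CPM in CD61Low, with a difference of 0.08 in mouse 2. Mrpl37 (chromosome 4, 107055874 to 107066868), found only in mitochondrial ribosomes, stood at 58.7, 59.5 and 51.6 CPM in CD61High and 38.6, 54.8 and 34.8 CPM in CD61Low, and CD61Low of mouse 2 was higher than CD61High of mouse 3. Their log2 fold changes with the block were 0.46 (SE 0.17) and 0.43 (SE 0.16).

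Among small subunit genes the same rule named Mrps25, Mrps2, Mrps9, Mrps27 and Mrps11. Mrps9 (chromosome 1, 42851233 to 42905683), the counterpart of bacterial S9 and free of exon overlap with other genes, stood at 45.4, 45.1 and 43.5 CPM in CD61High and 30.3, 35.4 and 34.8 CPM in CD61Low of mice 1, 2 and 3. The CD61High values lay close together and above all CD61Low values. Its log2 fold change was 0.42 (SE 0.14), edgeR adjusted p = 0.710, and 0.42 (SE 0.15) with the block, adjusted p = 0.185. Mrps27 (chromosome 13, 99344786 to 99415562), a pentatricopeptide repeat protein of the small subunit, differed by 0.38, 0.43 and 0.42 in mice 1, 2 and 3, the most even differences among the 10 genes named by this rule. Its values were 36.4, 30.8 and 38.4 CPM in CD61High and 27.9, 22.8 and 28.7 CPM in CD61Low, and both libraries of mouse 2 were the lowest of their group.

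Mrps2 (chromosome 2, 28468066 to 28471178), the counterpart of bacterial S2, stood at 78.9, 57.3 and 71.8 CPM in CD61High and 57.4, 42.2 and 60.4 CPM in CD61Low. Here the groups overlapped, because both libraries of mouse 2 were low, and the differences within mice were 0.46, 0.44 and 0.25. The standard error fell from 0.21 to 0.13 with the block at an unchanged log2 fold change of 0.38. Mrps25 (chromosome 6, 92169525 to 92184033), a protein with no bacterial counterpart, stood at 52.7, 40.6 and 51.8 CPM in CD61High and 35.6, 34.0 and 37.0 CPM in CD61Low, without overlap. Only part of this gene is measured, since 69.8% of its exon bases are shared with Nr2c2. Mrps11 (chromosome 7, 78783119 to 78792989), the counterpart of bacterial S11, stood at 32.9, 33.3 and 35.2 CPM in CD61High and 22.5, 31.7 and 22.8 CPM in CD61Low, and mouse 2 had nearly equal values.

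**Figure D4:**
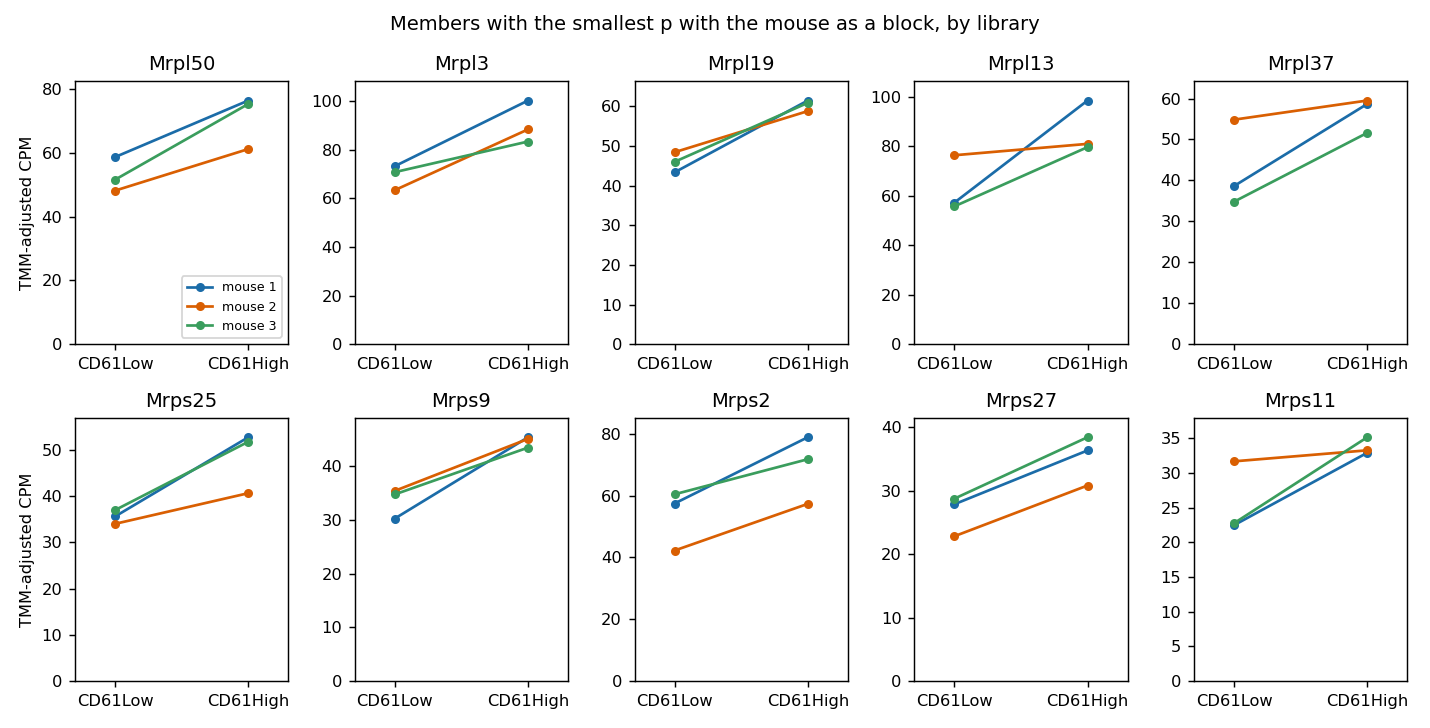
TMM-adjusted CPM (y axes from 0) of the 5 large and 5 small subunit genes with the smallest p with the mouse as a block, in the CD61Low and CD61High library of each mouse; lines join libraries of 1 mouse. These genes were picked for the same sign in 3 mice, which fixes that every line climbs from CD61Low to CD61High. The climb is least steep in mouse 2 for Mrpl13, Mrpl37 and Mrps11, with differences of 0.08, 0.12 and 0.07 log2 CPM.

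Grouped by place in the ribosome, the median log2 fold changes ran from 0.19 in the stalk to 0.29 in the central protuberance. The stalk recruits translation factors. Of its 4 tested genes, Mrpl12, the counterpart of the bacterial L7/L12 stalk protein, had the highest estimate of all members, 0.49 (SE 0.18) with an edgeR adjusted p of 0.727. It stood at 50.9, 41.0 and 46.7 CPM in CD61High and 28.6, 38.6 and 31.4 CPM in CD61Low of mice 1, 2 and 3, without overlap. The other stalk genes had lower estimates, 0.22 for Mrpl11, 0.16 for Mrpl54 and 0.04 for Mrpl10. The 8 genes of proteins around the exit tunnel, through which the new chain leaves, had a median of 0.26, from 0.12 for Mrpl44 to 0.43 for Mrpl47. Of these 8, 7 were higher in all 3 mice, beside 20.6% of all tested genes. The 4 genes of the central protuberance had a median of 0.29, and Mrpl48 was the lowest of them at 0.00 (SE 0.14).

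By origin, large subunit genes with a bacterial counterpart (29) had a median log2 fold change of 0.26 and those without one (19) of 0.18. In the small subunit the medians were 0.28 (16 genes) and 0.27 (10 genes). With the block they were 0.27 and 0.19, then 0.31 and 0.28. These classes were assigned from general knowledge after values had been seen, and their differences are described without a test. Mrps18a, Mrps18b and Mrps36 are in neither small subunit class. Mrps30, named for the small subunit but located in the large one, is among the 10.

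Some members have roles beyond or outside the set their names imply. Mrps12, the counterpart of the S12 protein that tunes decoding accuracy in bacteria, stood at 63.2, 50.3 and 51.8 CPM in CD61High and 35.1, 50.2 and 41.4 CPM in CD61Low, with differences of 0.85, 0.00 and 0.32 in mice 1, 2 and 3. Mrpl58, once known as Ict1, is a peptidyl-tRNA hydrolase built into the large subunit. It stood at 27.5, 30.6 and 27.5 CPM in CD61High and 22.0, 41.3 and 20.96 CPM in CD61Low, higher in CD61High in mice 1 and 3 and lower in mouse 2. The fitted log2 difference was 0.02 (SE 0.30). Mrps36, despite its name, is known as a subunit of the 2-oxoglutarate dehydrogenase complex. It stood at 10.2, 12.5 and 7.13 CPM in CD61High and 7.44, 19.8 and 5.85 CPM in CD61Low, and was highest in CD61Low of mouse 2. Mrpl44, an RNase III-like protein, was among the steadiest members at 70.5 ± 4.88 CPM in CD61High and 64.7 ± 2.35 CPM in CD61Low (SD, n = 3).

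The Mrps18 genes are 3 paralogs of bacterial S18. Mrps18c encodes the direct counterpart, Mrps18b another small subunit protein, and Mrps18a a protein that sits in the large subunit. Mrps18a stood at 55.8, 53.1 and 45.3 CPM in CD61High and 38.8, 50.6 and 42.9 CPM in CD61Low of mice 1, 2 and 3. Mrps18b had 8.82, 8.28 and 13.6 CPM and 10.98, 10.1 and 10.7 CPM in the same order, higher in CD61High in mouse 3 only. Mrps18c differed by 0.21, -0.24 and 0.94 in mice 1, 2 and 3, the widest range of the 3 paralogs. Their log2 fold changes were 0.22 (SE 0.17) for Mrps18a, -0.05 (SE 0.28) for Mrps18b and 0.23 (SE 0.40) for Mrps18c, with edgeR adjusted p from 0.881 to 0.976.

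Levels can be compared between genes only per length, here as CPM per kilobase (kb) of exon over the 6 libraries. The median was 19.9 CPM per kb for large and 13.4 for small subunit genes. In the large subunit Mrpl28 (83.3), Mrpl34 (83.2) and Mrpl18 (72.9) were highest and Mrpl48 (4.88), Mrpl47 (4.20) and Mrpl23 (1.42) lowest. In the small subunit Mrps28 (49.5), Mrps12 (46.8) and Mrps21 (46.1) were highest, and Mrps18b (4.99), Mrps35 (5.39) and Mrps10 (4.83) lowest. Exon length here joins all annotated transcripts of a gene, so a gene with long alternative exons, such as Mrpl48 with 8152 bases, gets a low value. Mrpl23, which stood at 7.96, 6.63 and 7.24 CPM in CD61High and 6.71, 5.99 and 7.04 CPM in CD61Low, has an annotated processed pseudogene, Mrpl23-ps1, which held 100 to 133 counts per library. Reads that fit more than one place in the genome were left out as multimapping, and the split between the gene and its copy is uncertain.

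**Figure D5:**
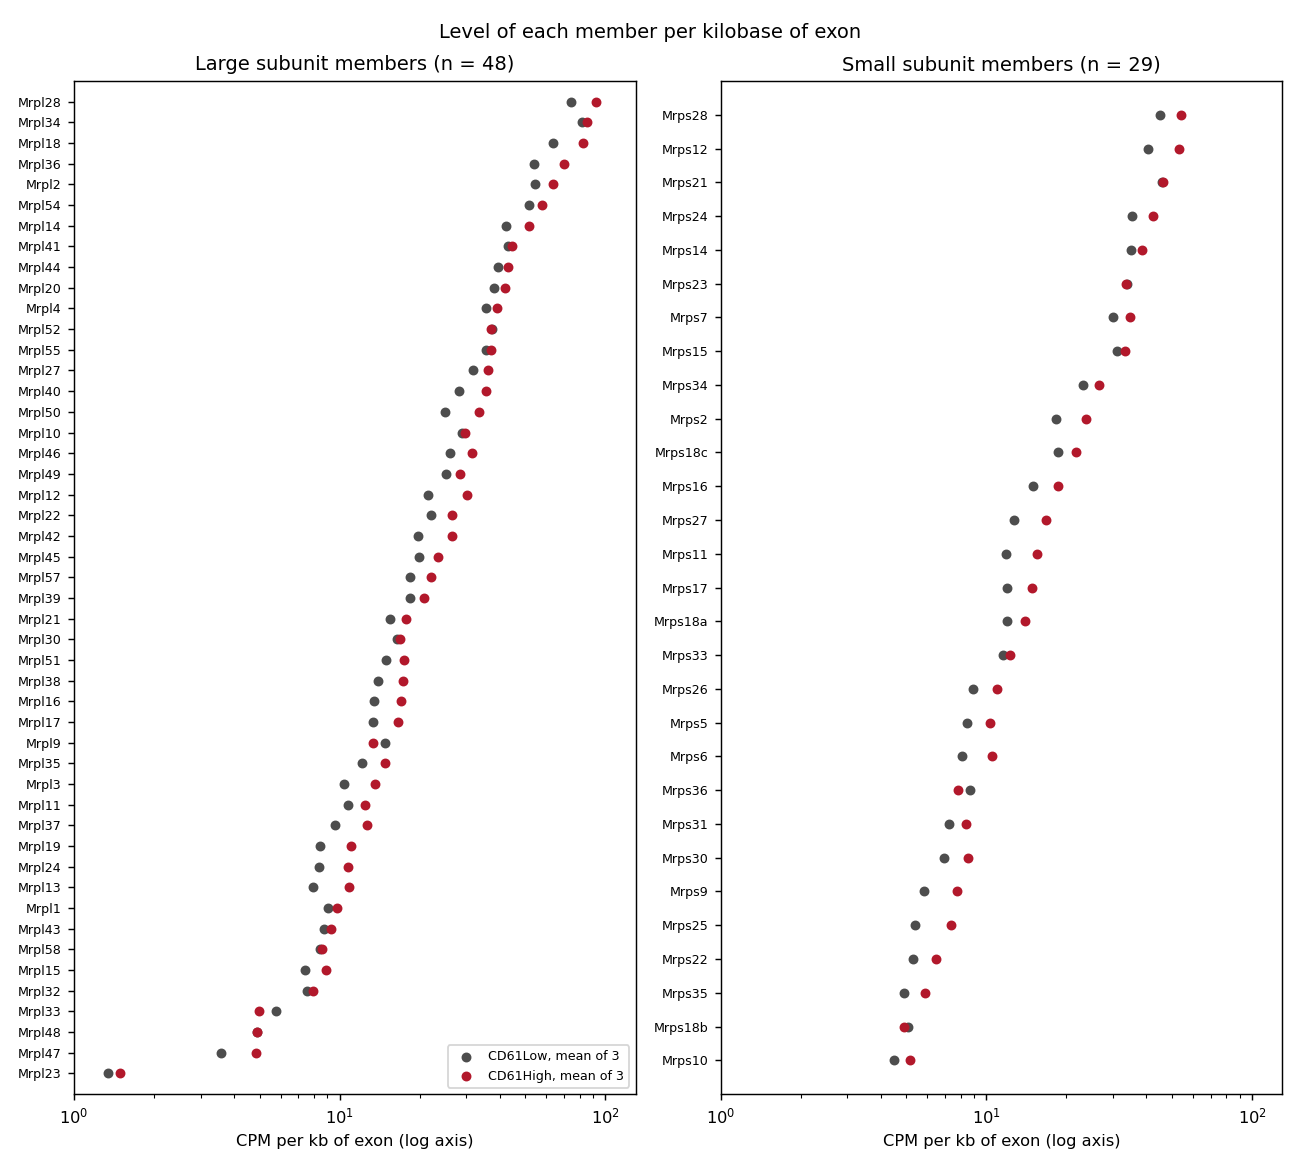
Mean level of each tested member in the 3 CD61Low (dark) and 3 CD61High (red) libraries, in CPM per kb of exon on a log axis, ordered by level within the large (left) and small (right) subunit. Levels span from 1.42 for Mrpl23 to 83.3 for Mrpl28, and the distance between the 2 groups of a gene is small beside the distance between genes.

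Most members varied little across libraries. The highest of the 6 values was a median of 1.55 times the lowest, and 1.11 times for the steadiest member, Mrpl48. Mrpl33, the counterpart of bacterial L33, varied most at 4.33 times, with 31.4, 48.9 and 29.1 CPM in CD61High and 25.5, 81.7 and 18.9 CPM in CD61Low of mice 1, 2 and 3. Both libraries of mouse 2 were the highest of their group, and its differences within mice were 0.30, -0.74 and 0.62. Mrps36 varied 3.39 times and Mrpl18 2.77 times, each with its highest value in CD61Low of mouse 2. Mrpl18, the counterpart of bacterial L18, stood at 101, 134 and 110.1 CPM in CD61High and 63.1, 149.7 and 54.0 CPM in CD61Low.

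Mice 1 and 3 alone, with the mouse as a block, gave medians of 0.34 (large) and 0.36 (small), and 76 of 77 estimates above 0. In that fit, 2 large subunit genes were called higher, beside 1.85% of all tested genes. They were Mrpl42, a protein with no bacterial counterpart, at 0.70 (SE 0.12) with an edgeR adjusted p of 0.0439, and Mrpl18, at 0.83 (SE 0.15) with 0.0470. Mrpl42 stood at 105, 87.8 and 100.4 CPM in CD61High and 61.8, 92.6 and 63.3 CPM in CD61Low of mice 1, 2 and 3, so that mouse 2 had nearly equal values. At an unadjusted p under 0.05, 40 of 77 members were higher and 0 lower, beside 11.6% of all tested genes higher and 14.7% lower. Only the 2 pairs are left in this fit, and leaving out mouse 2 was chosen with its neutrophil share known. Without mouse 1 or without mouse 3, with the block, 0 members were called and 64 and 70 of 77 estimates lay above 0.

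Reads on exon bases that a member shares with another gene are counted for neither. Of the 78 members in the library tables, 45 share no exon base with another gene and 18 share over 10%. Restricted to at most 10%, the median log2 fold change was 0.20 for 39 large and 0.27 for 21 small subunit genes. Mrpl53, a stalk protein gene, had 0 counts in all 6 libraries, and 88.0% of its exon bases are shared with Ccdc142os and Gm42688. Its expression is therefore not measured here.

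The rest of the mitochondrial translation machinery was examined through lists of other genes. Of 5 mitoribosome proteins under other symbols, 0 were called with or without the block, and the median log2 fold change was 0.19. Ptcd3, the largest of these differences, stood at 101, 106 and 101 CPM in CD61High and 82.7, 72.8 and 69.7 CPM in CD61Low, at 0.45 (SE 0.13) with an edgeR adjusted p of 0.676. Of 30 genes for ribosome assembly and rRNA modification, 0 were called, 28 estimates lay above 0 and the median was 0.20, with 0.23, 0.22 and 0.21 in mice 1, 2 and 3. Mettl15, a methyltransferase of the small subunit rRNA, had 0.56 (SE 0.21), Fastkd2, needed for the large subunit rRNA, 0.41 (SE 0.18), and Grsf1, an RNA granule protein, 0.34 (SE 0.15). Unlike the ribosomal proteins, the assembly list was thus positive within mouse 2 as well, a contrast that was not tested.

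Translation factors and insertion proteins (18 of 19 tested) had a median of 0.20 and mitochondrial aminoacyl-tRNA synthetases (17) of 0.28, with 0 called in each by edgeR with or without the block. DESeq2 with the block, which called 10% of all tested genes, called 1 of the former, Tsfm, and 3 of the latter, Cars2, Pars2 and Sars2, all higher. The synthetases differed by a median of 0.37, 0.36 and 0.23 in mice 1, 2 and 3, and 13 of 17 were higher in all 3 mice, beside the 20.6% of all tested genes. The summed level of this list went the other way in mice 2 and 3, with CD61High to CD61Low ratios of 1.29, 0.627 and 0.812. Most of the sum was Lars2 (leucyl), named after its values were seen, which stood at 1797, 1616 and 1179 CPM in CD61High and 1366, 3135 and 1784 CPM in CD61Low. With the edgeR block, 8 of 17 were higher at an unadjusted p under 0.05, beside 8.01%. Cars2, which charges mitochondrial tRNA with cysteine, stood at 38.0, 32.0 and 32.7 CPM in CD61High and 21.4, 25.0 and 18.4 CPM in CD61Low, at 0.67 (SE 0.18) with the block and an edgeR adjusted p of 0.112. Sars2 (seryl) had 0.65 (SE 0.18) and Pars2 (prolyl) 0.60 (SE 0.16). Tsfm, which recycles the elongation factor Tufm, stood at 49.3, 43.3 and 48.0 CPM and 27.8, 33.9 and 32.7 CPM, at 0.58 (SE 0.16) with the block, adjusted p = 0.122. Mtrf1, a release factor, and Mtif2, the initiation factor, had 0.63 (SE 0.24) and 0.36 (SE 0.14).

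Genes for mitochondrial DNA upkeep and transcription (15) had a median of 0.12 with 0 called, among them Elac2 (0.37) and Trmt10c (0.27), which process mitochondrial tRNAs, and Tefm (0.44), an elongation factor of mitochondrial transcription. Of 15 RNAs encoded in mitochondrial DNA, the 10 tested had a median of -0.35 and 0 estimates above 0, with 0 called. Without mouse 2, with the block, the median was -0.11 and 3 of 10 estimates lay above 0. By mouse their median was 0.30, -0.84 and -0.37, so mouse 1 had the opposite sign. Among them were mt-Nd6 at -0.61 (SE 0.37) and mt-Nd3 at -0.56 (SE 0.53). Of the 15 RNAs, mt-Nd4l was at 0 in every library, and mt-Atp6, mt-Atp8, mt-Co2 and mt-Co3 were each at 0 in at least 1. How many reads of the 15 RNAs were left out as multimapping is not known, so their levels are uncertain. Among 9 regulators of nuclear genes for mitochondria the median was -0.03. Ppargc1a, the coactivator PGC-1 alpha, was low at 2.15, 1.35 and 2.22 CPM in CD61High against 9.30, 2.62 and 7.67 CPM in CD61Low. The log2 difference, CD61High against CD61Low, was -1.77 (SE 0.55), edgeR adjusted p = 0.676, and -1.64 (SE 0.35) with the block, adjusted p = 0.0786. It was called lower by DESeq2 with the block, adjusted p = 0.00405, and by edgeR with the block without mouse 2, at -1.96 (SE 0.32), adjusted p = 0.0402. Pprc1, a relative of that coactivator, had 0.34 (SE 0.30) and Myc 0.25 (SE 0.47).

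Cytosolic ribosomal proteins were tested beside the mitochondrial ones. Over 77 of 79 genes the median log2 fold change was -0.05 and 22 estimates lay above 0, with 0 called. By mouse their median was 0.34, -0.29 and -0.28, so their sign was that of the mitochondrial ribosomal proteins in mouse 1 and the opposite in mouse 3. Proliferation genes (18) had a median of 0.71 with 0 called by edgeR on all 6 libraries, with or without the block. By mouse it was 1.22, -0.14 and 2.47. The medians of the mitochondrial ribosomal proteins, 0.44, -0.04 and 0.31, had the same signs but were largest in mouse 1, not mouse 3. Their sign in mouse 2 depended on the scaling, since it was 0.23 with library size alone. Mcm6, a subunit of the replicative helicase, stood at 835, 903 and 972 CPM in CD61High and 323, 634 and 338 CPM in CD61Low, at 1.14 (SE 0.22) with the block and an edgeR adjusted p of 0.0758. With the block, DESeq2 called 7 of 18 higher and limma voom 1, where they called 10% and 2.13% of all tested genes in either direction. Without mouse 2, edgeR with the block called 9 of 18 higher, beside 1.85% of all tested genes. Without the block it called 7 of 18 higher. The share over all genes is not given for that fit, so this count cannot be set against it. Whether the mitochondrial ribosomal proteins differ apart from proliferation was not tested.

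Promoter sequences from RefSeq (GRCm38.p6, 250 bases before to 50 after the start) were found for 69 of the 78 members in the library tables. Exact matches, on both strands, to 4 short motifs were counted in these windows and in those of all 16522 protein-coding genes with one. The NRF1 motif GCGCATGCG was present in 10.1% of members and 2.74% of all genes, the ETS motif CCGGAAG in 37.7% and 13.4%, and the YY1 motif AAGATGGCG in 11.6% and 2.25%. The SP1 motif GGGCGGG was present in 42.0% and 38.2%. Among the 10365 tested protein-coding genes with a window, the shares were 3.92%, 19.4%, 3.44% and 51.2% in that order. A match is a match of letters and no measure of binding. These 60 bases before the start show the ETS and NRF1 motifs in capitals, with Mrpl22 (chr11:58171604-58171663, plus strand), Mrpl9 (chr3:94443276-94443335, plus), Mrps22 (chr9:98601680-98601739, minus) and Mrpl58 (chr11:115403692-115403751, plus), chosen because they hold 1 or both motifs close to the start:
Mrpl22: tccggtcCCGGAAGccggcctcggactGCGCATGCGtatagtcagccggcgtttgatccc
Mrpl9: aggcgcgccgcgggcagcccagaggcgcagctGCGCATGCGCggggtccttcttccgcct
Mrps22: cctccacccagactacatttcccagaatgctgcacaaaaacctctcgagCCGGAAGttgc
Mrpl58: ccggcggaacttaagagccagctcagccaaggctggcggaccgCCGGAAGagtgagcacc

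The 8 members with the YY1 motif had log2 fold changes from 0.22 to 0.43, with a median of 0.39, beside 0.22 for the 60 tested members whose window lacks it. The 7 with the NRF1 motif had a median of 0.08, beside 0.24 for the 61 without. Motifs were chosen after values had been seen and these differences have no test. In 6 of the 8, the YY1 motif lies in sense 12 to 45 bases after the start, and in 4 (Mrpl35, Mrps18a, Mrps24 and Mrps27) its ATG is the annotated start codon. Among the 372 protein-coding genes with the motif, 200 (53.8%) have it in sense after the start, and in 134 of these 200 it lies on the start codon, a share like the members' 4 of 6. Stretches of 30 bases around the motif, in capitals, are shown for 5 of these 6, Mrpl35 (chr6:71823742-71823771, minus strand), Mrpl37 (chr4:107066821-107066850, minus), Mrpl42 (chr10:95501903-95501932, minus), Mrps18a (chr17:46111005-46111034, plus) and Mrps27 (chr13:99344790-99344819, plus):
Mrpl35: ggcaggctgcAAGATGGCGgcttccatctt
Mrpl37: tgcacgggcaAAGATGGCGgcgtccaggta
Mrpl42: agattgaagcAAGATGGCGagcgcgcggtg
Mrps18a: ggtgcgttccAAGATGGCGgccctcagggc
Mrps27: ggtgcgctccAAGATGGCGgctcccatggt

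Members often start head to head with another protein-coding gene. By the annotated starts, 33 of 77 members (42.9%) have a partner on the opposite strand that starts within 1000 bases, against 15.3% of the 13793 protein-coding genes of the series table. Mrpl46 and Mrps11, of different subunits, are each other's partner at 412 bases, with log2 fold changes of 0.27 and 0.40. Mrps12 lies 172 bases from Sars2, the seryl-tRNA synthetase named above, and these had 0.38 and 0.65. Mrpl18 lies 644 bases from Tcp1, a chaperonin subunit, with 0.37 and 0.40. Partners did not all follow their member, since Mrpl49 had 0.18 and its partner Fau, a cytosolic ribosomal protein gene, -0.35. Klc4, Tmem63b, Pnpla7, Wdfy1, Twnk, Gga3, Eme2 and Zfp661 were also below 0 beside a member above 0. All other partners with a value had the sign of their member.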

How the data were processed

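The authors deposited unnormalized gene counts, as STAR output for each of 6 libraries and joined for the series. STAR 2.7, MultiQC and edgeR were used, per the submitters' processing notes. The genome build is not given in the sources used here. All 55450 identifiers are those of GENCODE M21 (GRCm38), which supplied symbols, coordinates and exon overlaps, and 0 values differed between the tables. SMART-Seq v4 and Nextera XT do not mark strand, so unstranded counts were used. Unmapped reads were 4.36% to 10.9%, multimapping 10.0% to 15.6%, outside genes 2.88% to 4.21% and ambiguous 3.55% to 4.37% per library, and stayed out.

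The main test was the quasi-likelihood test of edgeR 4.0.16, run in R 4.3.3 (TMM, filterByExpr, Benjamini-Hochberg over 15610 genes, two-sided, all 77 members kept). Without the block, p-values set the group difference against the spread between the 3 numbered mice within a group, and the pairs are ignored. With the block, they set it against how much the differences within mice vary between the 3 mice. Log values carry a prior count of 2. The alternatives were the mouse as a block, limma 3.58.1 voom, DESeq2 1.42.0, other scalings, no filter and libraries or mice left out. The edgeR, limma voom and DESeq2 fits, with and without the block, were tested on simulated counts. The libraries sharing a number come from 1 animal per the titles, and their deviations from the group means correlated at 0.236, 0.806 and 0.761 for mice 1, 2 and 3. Between different mice they ran from -0.823 to 0.374, the last for CD61High of mouse 1 and CD61Low of mouse 3, above mouse 1's own value. Members and lists were chosen with earlier results of these data known. Named members are, per subunit, the 5 with the smallest p with the block among those with the same sign in 3 mice, the 3 highest and lowest per kb, those called, those untested and 8 fixed for their roles. Named list genes are the 3 with the smallest p with the block. Mrpl33, Mrpl42 and Mrpl18 in the fit without mouse 2, the genes set against others by place, and the genes with promoters or partners shown were named after their values were seen.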

Additional observations from a re-analysis of the deposited data

How the results depend on the processing

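The floors given for a count of 0 cover counting error only, and 3 mice limit the tests. In 24 alternative settings the medians of both subunits stayed above 0, and 0 members were called except with the mouse as a replicate block and without mouse 2, which called 2 large subunit genes. The replicate block changed no other member's call. The lowest adjusted p of a member ran from 0.0439 in that fit to 0.9999 without CD61High replicate 3. Over all 9 other lists the count of calls, 0 in the test of all 6 libraries without a block, was 12 with DESeq2 and the block, 1 with limma voom and the block, 7 without mouse 2 and 10 without mouse 2 with the block. Of all tested genes, DESeq2 with the block called 10% and limma voom with the block 2.13%. The edgeR block fit without mouse 2 called 1.85% of them higher. For the fit without mouse 2 and without the block, that share is not given.

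Estimates near 0 changed sign in some settings. Mrpl34 (0.061 in the test without a block) ran from -0.12 to 0.23 with a library or mouse left out, and was -0.11 with replicate block and without replicate 1. Mrpl48 (-0.00044 in the test without a block) ran from -0.058 to 0.038 with a library or mouse left out, and was 0.079 with library size alone, 0.031 with no filter on low counts, 0.00083 with limma voom, 0.00094 with limma voom and replicate block, 0.024 with replicate block and without replicate 2, 0.010 with replicate block and without replicate 3, 0.085 with replicate block and library size alone. Mrpl58 (0.021 in the test without a block) ran from -0.16 to 0.41 with a library or mouse left out, and was -0.011 with relative log expression factors, -0.010 with DESeq2, -0.023 with replicate block and without replicate 1, -0.063 with replicate block and without replicate 3. Mrps18b (-0.053 in the test without a block) ran from -0.32 to 0.079 with a library or mouse left out, and was 0.024 with library size alone, 0.027 with replicate block and without replicate 1, 0.0011 with replicate block and without replicate 2. Mrps18c (0.23 in the test without a block) ran from -0.059 to 0.72 with a library or mouse left out, and was -0.019 with replicate block and without replicate 3. Mrps21 (0.019 in the test without a block) ran from -0.17 to 0.49 with a library or mouse left out, and was -0.013 with relative log expression factors, -0.012 with DESeq2, -0.064 with replicate block and without replicate 1. Mrps36 (-0.15 in the test without a block) ran from -0.45 to 0.58 with a library or mouse left out, and was 0.021 with replicate block, 0.034 with library size alone, 0.058 with limma voom, 0.36 with replicate block and without replicate 2, 0.011 with replicate block and upper-quartile factors, 0.11 with replicate block and library size alone. mt-Nd2 (-0.44 in the test without a block) ran from -0.70 to 0.064 with a library or mouse left out. Myc (0.25 in the test without a block) ran from -0.12 to 0.66 with a library or mouse left out. The cause was not tested.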
